A study of Homo sapiens with 9 samples.

Results

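Solute carriers are the membrane proteins that move amino acids, sugars, metals, ions, vitamins, nucleosides and metabolites across the plasma membrane and the membranes of organelles. The genes taken here are those of the authors' value table whose array annotation begins with the family prefix SLC and a family number, or with SLCO for the organic anion polypeptides, with SLC2A1 set aside. That gave 210 of the 11991 named genes, measured by 260 of 15592 named probes, and each gene was read from its brightest probe in the authors' table. The 210 names fall into 53 families, which were grouped into 15 substrate classes by family number. Of these names, 9 belong to antisense, neighbouring or pseudogene transcripts or other genes that carry a carrier's name (for example SLC7A6OS and SLC4A1AP). That leaves 201 transporters. The 9 were kept in the 210 and in the class counts, where they are counted as carriers, and none of them changed in any comparison.

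The study took H9, a line of human embryonic stem cells (hESC), towards perivascular cells, the cells that sheathe small vessels, and measured total RNA on Illumina BeadChips, with 3 arrays in each of 3 groups. In the hESC group, undifferentiated H9 cells were kept on mouse embryonic fibroblast feeders with bFGF at 4 ng/ml. Embryoid bodies, which are floating aggregates of H9 cells made without feeders, were harvested at day 6 of culture with BMP4 at 40 nM. The perivascular progenitors came from such day 6 embryoid bodies, dissociated and plated on collagen in the endothelial medium EGM2-MV, with the adherent cells passaged. All groups therefore come from 1 cell line, and the labels do not say whether the arrays of a group come from separate cultures, so p-values measure only the spread between these arrays.

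Most carriers work either as exchangers or by coupling uptake of their cargo to a sodium or proton gradient, and a few open a passive path. Several amino acid carriers of family 7 reach the plasma membrane only in a pair with the heavy chain SLC3A2. The zinc carriers oppose each other: proteins of family 39 bring zinc into the cytosol, and those of family 30 take it out into vesicles or out of the cell. The carriers of family 25 sit in the inner mitochondrial membrane.

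Levels are normalized log2 intensities throughout. The words rose, fell and changed are used where the adjusted p of limma's moderated test, taken over all 11991 genes, was under 0.05 and the change was at least 2-fold. Each array detected 180 to 203 of the 210 carriers, and 152 carriers were detected on all 9 arrays. Every named gene was detected on at least 4 arrays, so a carrier detected in progenitors alone is not among them, while one detected in hESC and embryoid bodies alone can be: 19 carriers were detected on no progenitor array and 1 on no hESC array. SLC16A1, SLC16A3 and SLC25A6 were not analysed here.

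The third hESC array and the second progenitor array stood apart from their groups. The third hESC array differed at least 2-fold from the others at 445 and 426 of all genes, 6 and 3 of them carriers, whereas the first and second differed at 2. The second progenitor array differed at 657 and 600 genes, 11 and 8 of them carriers, against 29 genes between the first and the third. All 7 tested pluripotency markers fell in progenitors, and POU5F1, SOX2, L1TD1 and NANOG were detected on no progenitor array. In embryoid bodies none of the 7 rose or fell. The summed linear intensity of that list was 78129 to 94885 in hESC and 84783 to 85599 in embryoid bodies. NANOG read 11.23, 11.18 and 5.23 on the 3 hESC arrays. Of 7 mural markers, PDGFRB, ACTA2 and ANGPT1 were higher in progenitors than in hESC, CNN1 and NOTCH3 were lower, and all 7 were detected on every progenitor array. Of 7 mesenchymal markers 6 rose and THY1 fell, and the summed linear intensity of the list was 15258 to 21669 in hESC and 143908 to 211911 in progenitors. Of the endothelial markers KDR and TEK were measured, both on every array. KDR fell in progenitors against hESC (−1.33 ± 0.44), with overlapping groups. TEK did not pass there (1.03 ± 0.41); it fell in embryoid bodies (−1.93 ± 0.41) and was higher in progenitors than in embryoid bodies (2.97 ± 0.41). In such bulk RNA, fewer cells of a type and less RNA per cell cannot be told apart, and the part of this change in cell makeup in the carrier results was not tested.

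Between progenitors and hESC, 34 carriers rose and 38 fell, 34.3% of the 210, against 33.7% of all genes tested, of which 14.7% rose and 19.1% fell. The share of carriers that changed was thus near the background. Their median log2 fold change was −0.01, and that of all genes −0.07. Of the 38 carriers that fell, 13 were detected on no progenitor array. Their fitted changes use readings under background, and the bounds given for them later can be under 2-fold. Against embryoid bodies, 32 carriers were higher in progenitors and 35 lower, 31.9% against a background of 34.2% (15.3% higher and 18.9% lower), with medians of 0.05 for carriers and −0.08 for all genes. These comparisons share the progenitor arrays, so their counts are not independent: 27 carriers were called higher in progenitors and 31 lower in both. In embryoid bodies against hESC, 5 carriers were higher and 1 lower, 2.86% of members against 3.09% of all genes (1.5% higher and 1.59% lower). No called carrier had overlapping group ranges in the comparison that called it, which held as well for 99.3% of all called genes between progenitors and hESC, 99.9% between progenitors and embryoid bodies and 99.7% between embryoid bodies and hESC, so nothing about the carriers is read from it. There were 128 carriers called in none of the comparisons. The share of all genes is not given for this count or for the calls in both progenitor comparisons. Nothing about the carriers is read from these joint counts. The shares of all genes given here are the background for each class and list count below, and no such count was tested against them.

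**Figure D1:**
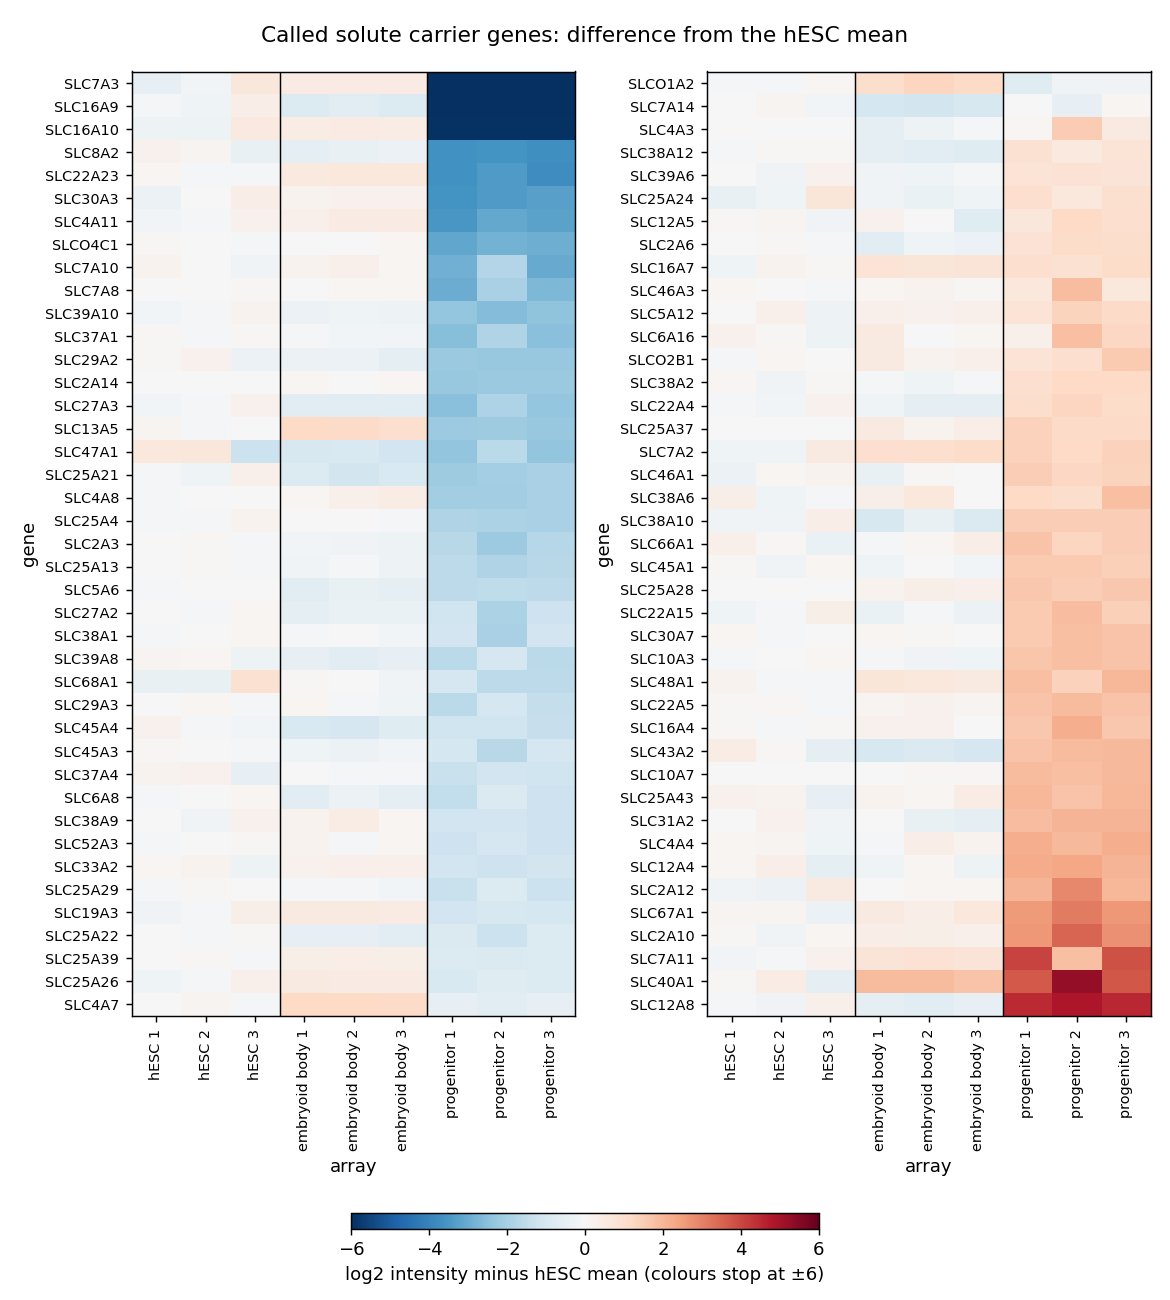
Each row is 1 of the 82 solute carrier genes called in any of the 3 comparisons, and each column 1 of the 9 arrays; colour gives the log2 intensity minus the gene's hESC mean. Rows are ordered by the difference between progenitors and hESC, as read, with SLC12A8 at 4.63 the highest; readings of undetected genes lie under background and have no order, and the embryoid body columns stay close to hESC for most rows.

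The promoters of the largest rises and of the lowest fitted values between progenitors and hESC that have an entry in the RefSeq promoter table (175 of the 210 carriers have one) are shown here as the 250 bases before the start of transcription, on GRCh38.p14. SLC12A8 and SLC40A1 rose most among them, and SLC16A9 and SLC16A10, both undetected in progenitors, had the lowest fitted values. The SLC12A8 window is chr3:125211400-125211649 on the minus strand, the SLC40A1 window chr2:189580787-189581036 on the minus strand, the SLC16A9 window, the first of 2 listed, chr10:59710080-59710329 on the minus strand, and the SLC16A10 window chr6:111087253-111087502 on the plus strand. Capitals mark matches, on either strand, to the core of the metal response element (TGCGCNC), which binds the zinc-sensing factor MTF1, to the E-box CACGTG, and to the GC box GGGCGG. No match overlapped another.
SLC12A8: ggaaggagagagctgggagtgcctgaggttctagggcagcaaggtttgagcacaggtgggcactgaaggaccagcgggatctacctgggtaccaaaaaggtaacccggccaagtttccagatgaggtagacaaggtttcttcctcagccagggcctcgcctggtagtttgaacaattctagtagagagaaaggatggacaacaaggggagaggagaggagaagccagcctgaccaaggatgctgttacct
SLC40A1: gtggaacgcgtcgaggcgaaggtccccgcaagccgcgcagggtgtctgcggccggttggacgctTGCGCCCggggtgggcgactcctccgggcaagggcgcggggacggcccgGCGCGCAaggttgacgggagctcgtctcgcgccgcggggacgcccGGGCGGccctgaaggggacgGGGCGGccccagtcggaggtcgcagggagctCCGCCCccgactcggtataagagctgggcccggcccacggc
SLC16A9: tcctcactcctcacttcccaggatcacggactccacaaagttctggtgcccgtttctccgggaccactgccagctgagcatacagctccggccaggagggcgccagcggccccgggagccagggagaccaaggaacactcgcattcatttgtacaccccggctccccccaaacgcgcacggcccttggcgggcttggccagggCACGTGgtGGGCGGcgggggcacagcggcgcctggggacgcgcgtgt
SLC16A10: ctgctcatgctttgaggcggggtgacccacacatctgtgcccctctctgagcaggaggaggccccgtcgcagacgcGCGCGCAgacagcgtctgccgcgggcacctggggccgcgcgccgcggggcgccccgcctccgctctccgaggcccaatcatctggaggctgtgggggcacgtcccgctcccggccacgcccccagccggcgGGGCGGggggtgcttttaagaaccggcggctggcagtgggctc
The SLC40A1 window holds the metal response core 186 and 137 bases before the start and GC boxes at 92, 72 and 41 bases. The SLC16A10 window holds a single metal response core, at 174 bases, and a GC box at 43 bases. SLC16A9 holds an E-box at 47 bases and a GC box at 39 bases, and the SLC12A8 window none of these letters. Among all 35116 promoter windows of this length, 16.8% hold the metal response core, 6.34% the E-box and 42.6% the GC box, so matches are common and describe only the letters.

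Amino acid carriers were the most numerous class, with 33 members, of which 6 rose and 5 fell in progenitors against hESC. That was 33.3%, beside 33.7% of all genes. The cationic amino acid carriers of family 7, which bring in arginine and lysine, went in different directions. SLC7A3 read 11.36, 11.65 and 12.49 in hESC, 12.31, 12.34 and 12.33 in embryoid bodies, and 5.64, 5.57 and 5.44 in progenitors. The progenitor arrays lay far below both other groups and did not detect the gene. Its level was at least 54.3-fold lower in progenitors than in hESC (adjusted p = 4.36e-08) and at least 76.4-fold lower than in embryoid bodies (adjusted p = 2.82e-08). Such bounds are taken where a group had no detected array; they set the dim arrays at the lowest signal that counted as detected, or at the probe's own reading where higher.

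SLC7A2, a second cationic carrier, was higher in embryoid bodies and in progenitors than in hESC. It read 9.52, 9.50 and 10.33 in hESC, 10.80, 10.79 and 10.90 in embryoid bodies, and 11.16, 10.9999 and 11.17 in progenitors, and no hESC array reached the others. The log2 fold change was 1.05 ± 0.20 (SE of the fit) in embryoid bodies (adjusted p = 0.00807) and 1.33 ± 0.20 in progenitors (adjusted p = 0.000313), both against hESC. Without the first or the second hESC array the embryoid body change was 0.92 or 0.91, under 2-fold. SLC7A1, the widely expressed cationic carrier, did not pass: its log2 difference between progenitors and hESC was −0.77 ± 0.24, and −0.46 without the second progenitor array, which read 10.43 against 11.39 and 11.34. SLC7A14, a lysosomal relative, was the single carrier called lower in embryoid bodies, at 6.50, 6.46 and 6.59 against 7.54, 7.70 and 7.38 in hESC. That log2 change of −1.02 ± 0.16 (adjusted p = 0.00393) became −0.94 without the second hESC array and −0.9996 without the second embryoid body array, just under 2-fold in each case. A dimmer probe of SLC43A3 also passed there as a single probe, at −1.03, but its brightest probe did not (−0.49).

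The light chains that pair with SLC3A2 also split. SLC7A11, which takes up cystine in exchange for glutamate and so feeds glutathione synthesis, read 5.88, 5.95 and 6.30 in hESC, 6.83, 6.89 and 6.81 in embryoid bodies, and 10.08, 7.86 and 9.85 in progenitors. All progenitor arrays lay above the other groups, with the second one well below its companions. The gene was 9.30-fold higher in progenitors than in hESC (log2 3.22 ± 0.49, adjusted p = 0.000309) and 2.42 ± 0.49 higher on the log2 scale than in embryoid bodies (adjusted p = 0.00174). Leaving out the second progenitor array raised these log2 values to 3.92 and 3.11. SLC7A8, a light chain for large neutral amino acids, went the other way, from 10.83, 10.87 and 10.93 in hESC to 7.91, 8.92 and 8.16 in progenitors, a fall by 2.55 ± 0.22 (adjusted p = 7.82e-06). SLC7A10, a carrier of small neutral amino acids including serine, fell by 2.57 ± 0.29 (adjusted p = 4.99e-05), to a level detected on 1 progenitor array.

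SLC7A5, the main light chain for leucine and other large neutral amino acids, did not pass. It read 12.62, 12.76 and 12.94 in hESC, 11.86, 11.87 and 11.85 in embryoid bodies, and 12.30, 10.85 and 12.34 in progenitors. The log2 difference between progenitors and hESC was −0.94 ± 0.34, or −0.45 without the second progenitor array; in embryoid bodies it was −0.91 ± 0.34. The call depended on the setting: with median scaling it passed in embryoid bodies (−1.17, adjusted p = 0.0279) and in progenitors (−1.0036, adjusted p = 0.0287), and in progenitors also without the first array (−1.17, adjusted p = 0.0203) or the third (−1.19, adjusted p = 0.0172). The heavy chain SLC3A2 itself read 12.21, 12.20 and 12.30 in hESC and 12.54, 11.44 and 12.62 in progenitors, groups that overlap, with a log2 difference of −0.04 ± 0.27. A second SLC3A2 probe, dimmer at a mean of 7.49 in hESC, was higher in progenitors by 1.46, so the probes of this gene disagree. SLC1A5, the glutamine exchanger, had a log2 difference of −0.20 ± 0.15 between progenitors and hESC.

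In family 38, the sodium-coupled neutral amino acid carriers, 3 of 11 members rose and 2 fell, 45.5% against 33.7% of all genes. SLC38A1 and SLC38A2, which both take up glutamine and alanine, moved apart. SLC38A1 went from 12.24, 12.28 and 12.43 in hESC to 11.16, 10.36 and 11.16 in progenitors, a log2 change of −1.43 ± 0.20 (adjusted p = 0.000189); a second, dimmer probe did not pass at −0.64. SLC38A2, whose synthesis rises when amino acids are short, went from 11.20, 10.89 and 11.14 to 12.11, 12.26 and 12.26, a log2 rise of 1.13 ± 0.11 (adjusted p = 1.46e-05), with the embryoid bodies at 10.96, 10.83 and 10.95. Neither gene's progenitor arrays overlapped the other groups. SLC38A9, the lysosomal arginine sensor upstream of the growth kinase mTORC1, fell by 1.18 ± 0.13 against hESC, and SLC38A10 rose by 1.47 ± 0.18. SLC43A2, a sodium-independent carrier of large neutral amino acids, rose from 7.64, 7.26 and 6.64 in hESC and 6.24, 6.32 and 6.19 in embryoid bodies to 8.90, 9.07 and 9.14, a log2 rise of 1.86 ± 0.22 over hESC (adjusted p = 5.56e-05) and of 2.79 ± 0.22 over embryoid bodies (adjusted p = 3.73e-06).

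Genes that cells switch on when amino acids run short were measured beside these carriers, as a list of 18, all tested. In embryoid bodies 3 of them rose, 16.7% against 1.5% of all genes. In progenitors against hESC 7 rose (38.9% against 14.7%) and 2 fell (11.1% against 19.1%). DDIT3, a transcription factor of the stress response, read 6.98, 6.92 and 6.55 in hESC, 9.99, 9.97 and 9.76 in embryoid bodies and 11.01, 10.11 and 10.96 in progenitors, a log2 rise of 3.09 ± 0.23 and 3.88 ± 0.23 over hESC. TRIB3, a pseudokinase induced by the same pathway, rose by 1.29 ± 0.27 and 3.38 ± 0.27. On both genes the lowest progenitor array was the second, the one that stood apart from its group. CEBPB rose by 2.43 ± 0.09 in progenitors, while VLDLR fell by 2.40 ± 0.19. The list's median log2 fold change was 0.45 in progenitors and 0.49 in embryoid bodies, beside −0.07 and −0.01 for all genes.

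**Figure D2:**
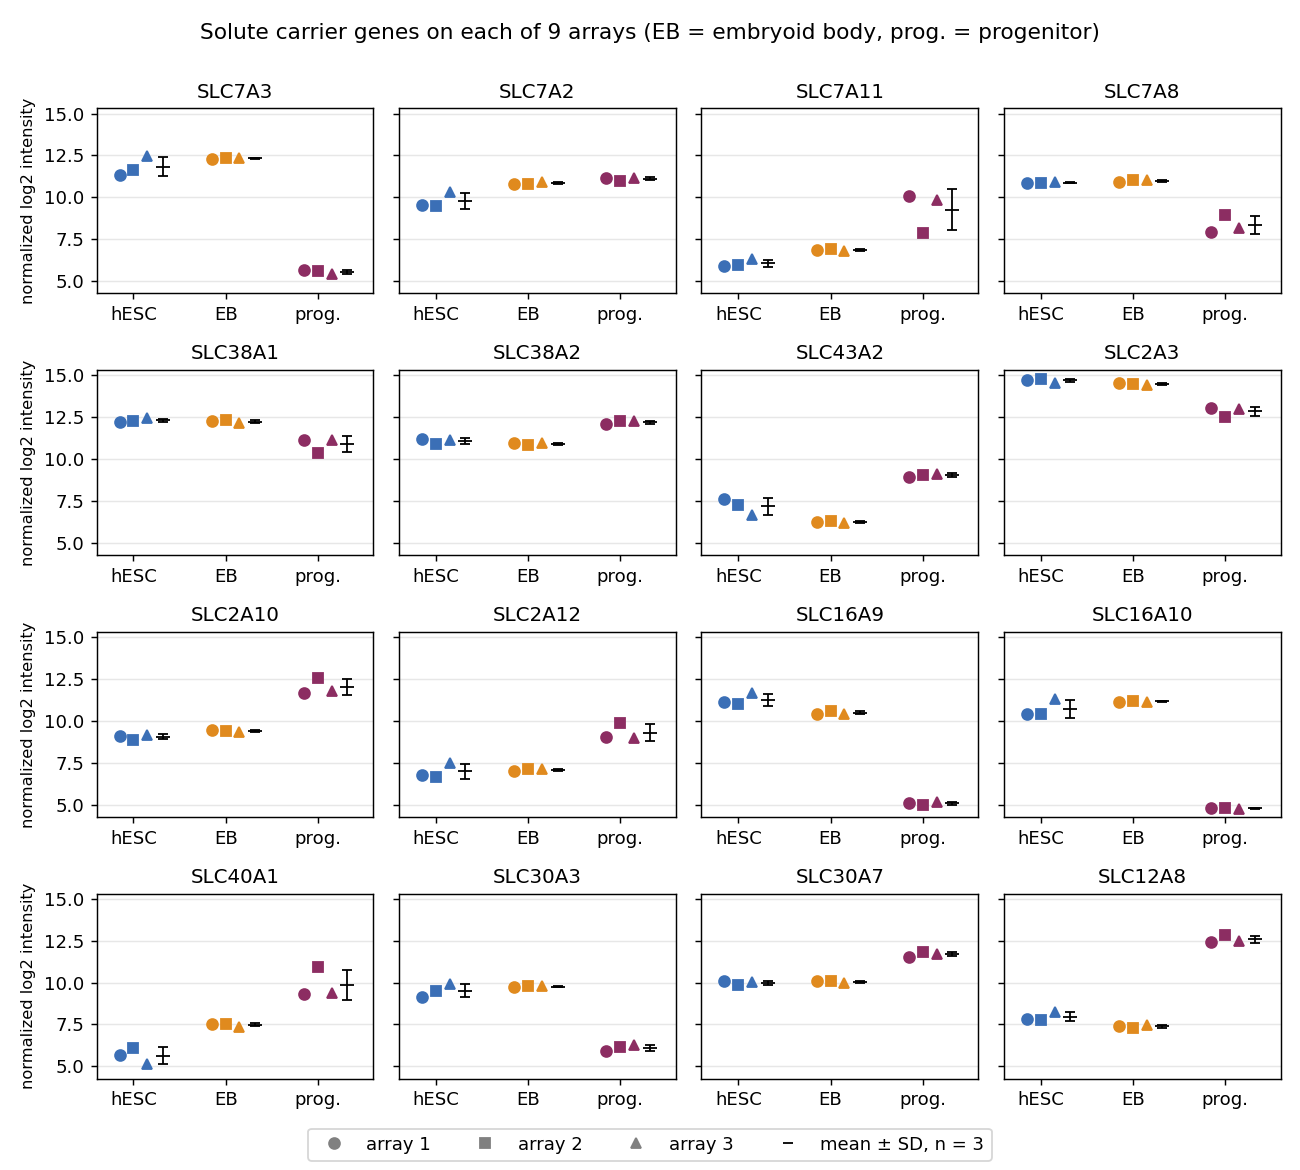
Normalized log2 intensity of 16 solute carrier genes on each of the 9 arrays, with marker shapes for arrays 1 to 3 and the mean ± SD (n = 3) beside each group. Progenitor arrays of SLC7A3, SLC16A9 and SLC16A10 sit between 4.76 and 5.64, below every hESC and embryoid body array, and those of SLC12A8 sit between 12.43 and 12.83, above every other array.

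The carboxylate families held further falls to levels that were not detected. SLC16A9, a carnitine carrier of the monocarboxylate family, read 11.12, 10.98 and 11.67 in hESC, 10.43, 10.59 and 10.43 in embryoid bodies, and 5.09, 4.97 and 5.16 in progenitors. SLC16A10, which carries aromatic amino acids rather than carboxylates although it belongs to family 16, read 10.42, 10.40 and 11.32, then 11.15, 11.20 and 11.16, and then 4.77, 4.77 and 4.76. Neither was detected on any progenitor array, and no progenitor array came near the other groups. SLC16A9 was at least 36.3-fold lower in progenitors than in hESC (adjusted p = 5.6e-09), and SLC16A10 at least 24.9-fold (adjusted p = 2.92e-08).

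SLC13A5, the plasma membrane citrate carrier, was highest in embryoid bodies. It read 7.20, 6.92 and 7.03 in hESC, 8.26, 8.21 and 8.05 in embryoid bodies and 4.86, 4.92 and 4.78 in progenitors, where it was not detected, and the 3 groups did not overlap. Its log2 rise in embryoid bodies was 1.13 ± 0.10 (adjusted p = 0.000395), and it was at least 4.30-fold lower in progenitors than in embryoid bodies (adjusted p = 1.34e-08). Of the 10 members of the class, SLC16A4 and SLC16A7 were the 2 that rose in progenitors against hESC, by 1.79 ± 0.16 and 1.02 ± 0.12 on the log2 scale; the second became 0.87 at the lowest when single arrays were left out.

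Among 21 members of the sugar families, 5 rose and 7 fell in progenitors against hESC, 57.1% against 33.7% of all genes. Without background correction 2 rose and 5 fell, and likewise with the authors' log2 values. Between progenitors and embryoid bodies the share was 38.1% against 34.2%. Among the rises over hESC, SLC2A6 and SLC5A12 became 0.93 and 0.94 at the lowest when single arrays were left out. SLC2A3, the high-affinity glucose carrier of neurons and early embryos, was bright in every group, with 14.74, 14.79 and 14.57 in hESC, 14.53, 14.47 and 14.41 in embryoid bodies and 13.03, 12.54 and 13.01 in progenitors. The progenitor arrays lay below all others, and the log2 fall from hESC was −1.84 ± 0.14 (adjusted p = 3.56e-06). SLC2A14 encodes a near-identical relative of SLC2A3, so its probe may share signal with that gene. It was not detected in progenitors and was at least 3.59-fold lower there than in hESC.

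SLC2A10 and SLC2A12 rose. SLC2A10, a glucose carrier of internal membranes whose loss causes arterial tortuosity, read 9.12, 8.87 and 9.17 in hESC, 9.45, 9.39 and 9.36 in embryoid bodies, and 11.66, 12.56 and 11.81 in progenitors. Every progenitor array was above every other array, and the rise over hESC was 7.77-fold (log2 2.96 ± 0.21, adjusted p = 2.38e-06). SLC2A12, an insulin-responsive glucose carrier, went from 6.78, 6.64 and 7.51 in hESC to 9.04, 9.86 and 8.97, a log2 rise of 2.32 ± 0.28 (adjusted p = 6.53e-05). The second progenitor array was the highest of its group for both genes, and without it the log2 rises were 2.68 and 2.03. SLC2A8, a glucose carrier of internal membranes, read 10.44, 10.62 and 10.53 in hESC and 10.31, 10.85 and 10.39 in progenitors, with overlapping groups. Of 3 members of family 37, 2 fell, SLC37A1 by 2.29 ± 0.18 and SLC37A4 by 1.23 ± 0.19. Both of these exchange glucose 6-phosphate for phosphate in the endoplasmic reticulum. SLC5A6, grouped with the sugar carriers by its family although it carries biotin and pantothenate, fell by 1.55 ± 0.09 (adjusted p = 4.96e-07).

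**Figure D3:**
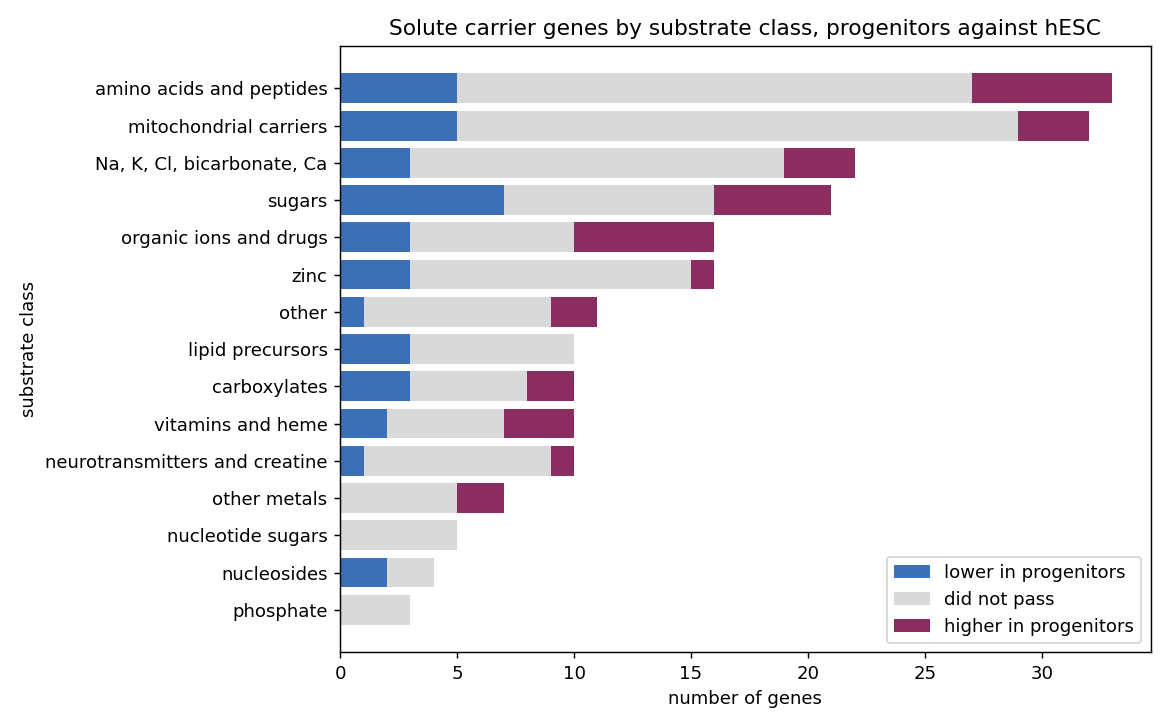
Number of solute carrier genes in each of 15 substrate classes that were lower, did not pass or were higher in progenitors against hESC. Each gene was read from its brightest probe. The amino acid class holds 33 genes with 6 higher and 5 lower, and the nucleotide sugar and phosphate classes hold 5 and 3 genes, none of which passed.

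Of 7 carriers of metals other than zinc, 2 rose and none fell in progenitors against hESC, 28.6% against 33.7% of all genes. SLC40A1, ferroportin, the only known exporter of iron from cells, rose over hESC in embryoid bodies and in progenitors. It read 5.70, 6.11 and 5.11 in hESC, 7.53, 7.53 and 7.38 in embryoid bodies, and 9.31, 10.92 and 9.36 in progenitors, in separate ranges, with the second progenitor array highest. Its log2 rise over hESC was 1.84 ± 0.41 in embryoid bodies (adjusted p = 0.0153) and 4.22 ± 0.41 in progenitors (18.7-fold, adjusted p = 1.84e-05), and 3.70 without the second progenitor array. Only 1 hESC array detected the gene. The embryoid body call was lost without the first or second embryoid body array (adjusted p = 0.054 and 0.0522), and a second, dimmer probe gave a log2 difference of 0.35 there, which did not pass, and a rise of 1.08 in progenitors. The SLC40A1 promoter printed above holds the metal response core at a pair of places, and that of SLC16A10, undetected in progenitors, holds it at 1. A link between these letters and the level of either gene was not tested.

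SLC31A2, a copper carrier of endosomes and lysosomes, went from 6.45, 6.73 and 6.27 in hESC to 8.35, 8.51 and 8.50 in progenitors, a log2 rise of 1.97 ± 0.16 (adjusted p = 5.79e-06). SLC11A2, which takes up ferrous iron, had a log2 difference of −0.90 ± 0.11 and so fell short of 2-fold. Both mitoferrins, which bring iron into mitochondria, rose over hESC: SLC25A37 by 1.23 ± 0.11 and SLC25A28 by 1.56 ± 0.08. SLC48A1, which moves heme out of lysosomes, rose by 1.72 ± 0.16 (adjusted p = 1.49e-05); its second probe was 0.99 higher, just under 2-fold.

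In the zinc families 1 of 16 members rose and 3 fell in progenitors against hESC, 25% against 33.7% of all genes. SLC30A3, which loads zinc into synaptic vesicles, read 9.16, 9.49 and 9.91 in hESC, 9.72, 9.77 and 9.80 in embryoid bodies, and 5.91, 6.13 and 6.26 in progenitors, a log2 fall of −3.42 ± 0.18 (adjusted p = 2.94e-07). Progenitor arrays lay below all others. The importer SLC39A10 went from 10.50, 10.56 and 10.88 to 8.33, 8.05 and 8.25 (−2.44 ± 0.12, adjusted p = 2.36e-07). SLC39A8, an importer of zinc and manganese, fell by 1.42 ± 0.18 (adjusted p = 0.000116). SLC30A7, which loads the Golgi with zinc, was the 1 that rose by its brightest probe, from 10.10, 9.87 and 10.03 to 11.56, 11.81 and 11.71 (1.69 ± 0.10, adjusted p = 8.42e-07). Dimmer probes of SLC30A5 and SLC39A6 passed as single probes, at 1.25 and 1.09. The brightest probes of these genes did not, at 0.42 and 0.83, nor did a further SLC30A5 probe (0.26). SLC30A1, the zinc exporter of the plasma membrane, did not pass in any comparison, with log2 differences from hESC of 0.47 ± 0.15 in embryoid bodies and 0.31 ± 0.15 in progenitors. SLC39A14, an importer of zinc and iron, had a log2 difference of −0.74 ± 0.18 in progenitors.

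Metallothioneins, the small proteins that bind zinc and copper and are induced through the metal response element, were measured as a list with MTF1. Of 12 genes listed 7 could be tested, 4 of which rose in embryoid bodies (57.1% against 1.5% of all genes). In progenitors against hESC 2 rose (28.6% against 14.7%) and 4 fell (57.1% against 19.1%). MT2A read 9.10, 9.27 and 8.53 in hESC, 10.16, 10.10 and 10.02 in embryoid bodies and 14.25, 13.78 and 14.23 in progenitors, a log2 rise of 1.13 ± 0.20 and then 5.12 ± 0.20 over hESC. MT1F read 11.32, 11.42 and 10.88, then 12.66, 12.79 and 12.79, and then 6.98, 6.82 and 6.60, so it rose by 1.54 ± 0.16 in embryoid bodies and changed by −4.40 ± 0.16 in progenitors. MT1H rose by 1.22 ± 0.15 in embryoid bodies and, detected on no progenitor array, was at least 12.4-fold lower in progenitors than in hESC. MT1G, which did not pass in embryoid bodies, changed by −4.22 ± 0.12 in progenitors. Metallothionein genes are near-identical copies, so their probes may share signal.

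Of the 32 mitochondrial carriers of family 25, 3 rose and 5 fell in progenitors against hESC, 25% against 33.7% of all genes. None passed in embryoid bodies, where limma called 371 of all genes. That is a share of 3.09%, so nothing about this family is read from the absence. Dimmer probes of SLC25A24 and SLC25A20 passed as single probes between progenitors and hESC, at 1.82 and 1.20. The brightest probes of these genes did not, at 0.87 and 0.86. For SLC25A26, dimmer probes passed there at −1.71 and −1.37, and the brightest did not, at −0.82. The adenine nucleotide carriers, which exchange ADP for ATP, differed from each other. SLC25A4, the isoform of heart and muscle, read 12.53, 12.53 and 12.85 in hESC, 12.68, 12.66 and 12.55 in embryoid bodies and 10.83, 10.72 and 10.67 in progenitors, a log2 fall of −1.90 ± 0.11 (adjusted p = 5.95e-07). SLC25A5, the isoform of dividing cells, stayed within 14.34 to 14.59 on all 9 arrays, with a log2 difference of −0.23 ± 0.07. SLC25A3, the phosphate carrier, read 13.44 to 13.89 over the 9 arrays and did not pass.

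SLC25A13, the liver isoform of the aspartate and glutamate exchanger, fell from 10.90, 10.94 and 10.73 to 9.28, 9.06 and 9.21 (−1.67 ± 0.10, adjusted p = 7.96e-07). Its partner isoform SLC25A12 had a log2 difference of 0.63 and did not pass. SLC25A21, which carries 2-oxoadipate, was not detected in progenitors and was at least 2.27-fold lower there than in hESC (adjusted p = 3.15e-06). The basic amino acid carrier SLC25A29 fell by 1.16 ± 0.14, and the glutamate carrier SLC25A22 by 1.00 ± 0.13, which became 0.97 without the third hESC array and 0.85 without the second progenitor array. The largest rise was that of SLC25A43, from 9.05, 9.04 and 8.32 in hESC to 10.80, 10.50 and 10.81 (1.90 ± 0.20, adjusted p = 2.93e-05). The third hESC array was its lowest. In a list of outer membrane channels and protein import machinery of mitochondria, 19 of 22 genes were tested, and none rose. The 4 that fell, 21.1% against 19.1% of all genes, included TIMM8A by 2.11 ± 0.20 and TOMM40 by 1.35 ± 0.25. The median of the list was −0.35, and that of family 25 −0.14.

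**Figure D4:**
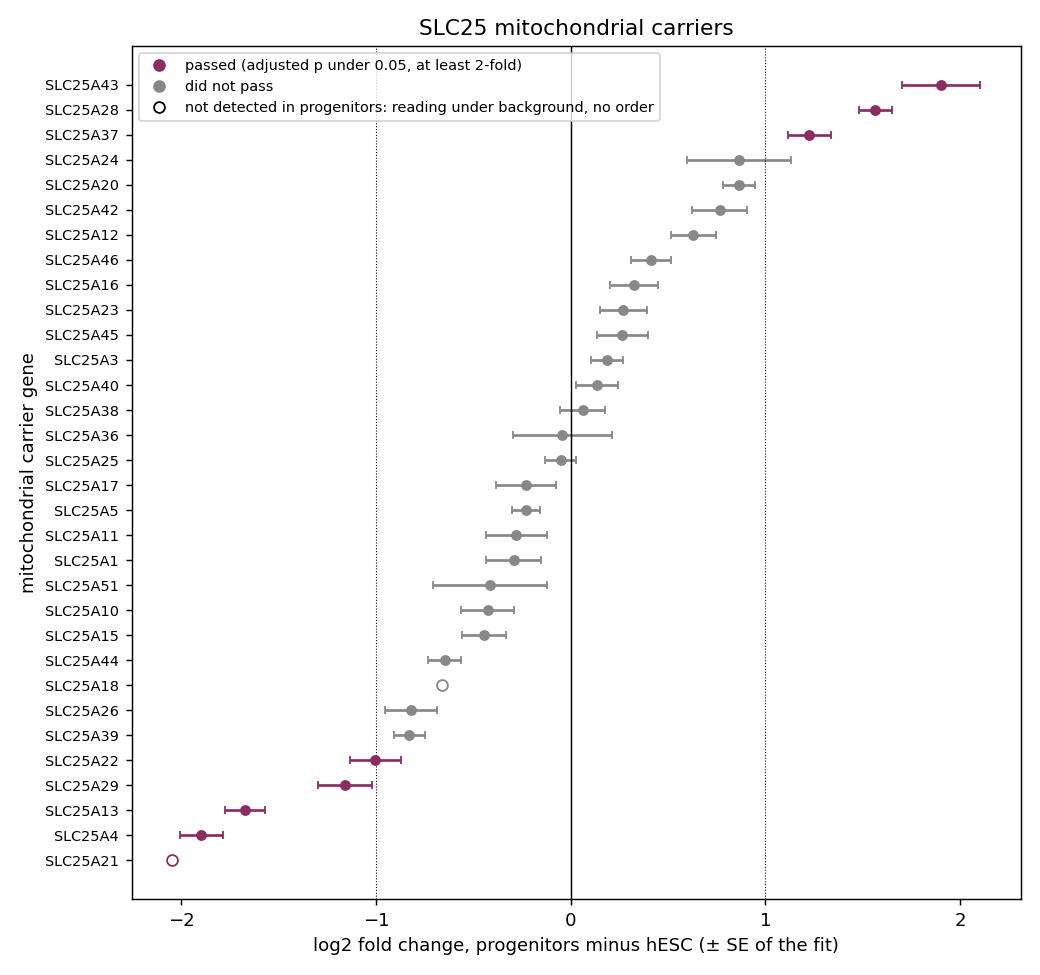
Log2 fold change of the 32 family 25 carriers between progenitors and hESC, with bars of 1 SE of the fit and dotted lines at 2-fold. Open points are carriers detected on no progenitor array, SLC25A21 and SLC25A18, whose readings under background have no order. The filled points run from SLC25A4 at −1.90 to SLC25A43 at 1.90, and 24 of all 32 did not pass, as read from the brightest probe.

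Among the 22 carriers of sodium, potassium, chloride, bicarbonate and calcium, 3 rose and 3 fell in progenitors against hESC. That was 27.3%, beside 33.7% of all genes. SLC12A8, a distant relative of the cation and chloride cotransporters, had the largest rise of all carriers. It read 7.86, 7.75 and 8.27 in hESC, 7.43, 7.29 and 7.48 in embryoid bodies, and 12.43, 12.83 and 12.50 in progenitors. No other array came within 4 log2 units of the progenitors, and the gene was 24.7-fold higher there than in hESC (log2 4.63 ± 0.16, adjusted p = 2.01e-08). SLC12A4, the widely expressed potassium and chloride cotransporter, rose by 2.18 ± 0.22 (adjusted p = 2.32e-05), while SLC12A2, which brings in sodium, potassium and chloride, had a log2 difference of 0.40 ± 0.15 and did not pass.

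The bicarbonate carriers of family 4 changed in different directions. SLC4A7, a sodium and bicarbonate cotransporter, was highest in embryoid bodies, at 9.99, 10.14 and 9.85 in hESC, 11.17, 11.17 and 11.16 in embryoid bodies and 9.48, 9.35 and 9.52 in progenitors, again with separate ranges. The rise in embryoid bodies was 1.18 ± 0.10 on the log2 scale (adjusted p = 0.000213). SLC4A4, another cotransporter of the same ions, rose in progenitors over hESC by 2.08 ± 0.17 (adjusted p = 4.9e-06), from a level detected on 2 of 3 hESC arrays. SLC4A11, known from cornea and kidney, read 8.97, 9.01 and 9.38 in hESC and 5.65, 6.06 and 5.92 in progenitors, a change of −3.24 ± 0.15 (adjusted p = 1.2e-07). The sodium and calcium exchanger SLC8A2, known from brain, was detected on no progenitor array and was at least 5.95-fold lower there than in hESC (adjusted p = 1.39e-07). For the sodium pump that powers such carriers, 7 of 13 listed subunits were tested. In progenitors against hESC none rose and 4 fell, 57.1% against 19.1% of all genes. Among them FXYD6, not detected in progenitors, was at least 7.43-fold lower, and ATP1B2 changed by −2.27 ± 0.24 on the log2 scale.

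Of 16 carriers of organic ions and drugs, 6 rose and 3 fell in progenitors against hESC, 56.2% against 33.7% of all genes. The falls were SLC22A23, at least 7.28-fold (adjusted p = 1.01e-08), the kidney organic anion carrier SLCO4C1, at least 4.23-fold (adjusted p = 1.82e-08), and SLC47A1, none of which any progenitor array detected. A second SLC22A23 probe was 0.75 lower on the log2 scale and did not pass. Its mean in progenitors was 6.95, above the lowest detected signals of those arrays (6.03 to 6.12). The bound and the lack of detection therefore hold for the brightest SLC22A23 probe only. SLC47A1, which extrudes organic cations, read 8.15, 8.21 and 6.24 in hESC, so the third hESC array lay close to the embryoid bodies at 6.58, 6.63 and 6.37; it was at least 2.76-fold lower in progenitors than in hESC (adjusted p = 0.00336), and at least 4.31-fold lower without that array. The rises included SLC10A7 (1.87 ± 0.08, adjusted p = 1.19e-07), whose loss disturbs skeletal growth, and the carnitine carrier SLC22A5 (1.78 ± 0.10, adjusted p = 4.07e-07). SLCO1A2, an uptake carrier of bile salts and drugs, was higher in embryoid bodies, at 7.26, 7.49 and 7.36 against 6.15, 6.13 and 6.34 in hESC (1.16 ± 0.15, adjusted p = 0.00156), and was not detected in progenitors. In this class 2 rose and 3 fell in progenitors against hESC without background correction, and 3 and 2 with the authors' log2 values.

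The 5 carriers called higher in embryoid bodies were SLC40A1, SLC4A7, SLCO1A2, SLC13A5 and SLC7A2. Beside them, 3 of 4 tested markers of yolk sac and liver rose in embryoid bodies, and the summed linear intensity of that list was 970 to 1401 in hESC, 3333 to 3682 in embryoid bodies and 173 to 214 in progenitors. Its part in these rises was not tested. With arrays scaled to a common median instead of common quantiles, the median of all genes shifted by −0.27 in this comparison, and the split of carrier calls became 1 higher and 9 lower. Only SLC40A1 and SLC7A14 passed under both scalings. Without background correction, and likewise with the authors' log2 values, SLC4A7 was the single carrier that still passed.

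The smaller classes had few calls. Of 10 carriers of lipid precursors none rose and 3 fell in progenitors against hESC, among them the fatty acid carriers SLC27A3 from 10.10, 10.16 and 10.53 to 7.75, 8.43 and 7.92 (−2.23 ± 0.18, adjusted p = 5.33e-06) and SLC27A2, which fell by 1.45 ± 0.18. Of 4 equilibrative nucleoside carriers, SLC29A2 went from 9.17, 9.37 and 8.77 to 6.89, 6.82 and 6.85 (−2.25 ± 0.15, adjusted p = 1.53e-06) and the lysosomal SLC29A3 fell by 1.38 ± 0.16, with none higher. The creatine carrier SLC6A8 fell by 1.20 ± 0.16, and SLC6A16, a family member with no known cargo, was higher by 1.11 ± 0.34, which was 0.78 without the second progenitor array (adjusted p = 0.0515) and 0.94 without the third hESC array (adjusted p = 0.057). Among 10 vitamin and heme carriers 3 rose and 2 fell. The intestinal folate carrier SLC46A1 rose by 1.34 ± 0.18, the riboflavin carrier SLC52A3 was at least 1.18-fold lower, and the thiamine carrier SLC19A3 fell by 1.06 ± 0.14, which was 0.90 and under 2-fold without the third hESC array. SLC19A3 was also lower in progenitors than in embryoid bodies, by −1.59 ± 0.14. SLC67A1 rose by 2.75 ± 0.19 (adjusted p = 1.78e-06), from 6.68, 6.70 and 6.18 to 9.05, 9.63 and 9.12, and SLC66A1, a lysosomal exporter of basic amino acids, by 1.48 ± 0.21. None of 3 phosphate carriers passed, with SLC20A1 at 12.21, 12.18 and 12.27 in hESC and 12.65, 11.88 and 12.66 in progenitors. Nor did any of 5 nucleotide sugar carriers, as read from the brightest probe. A second SLC35A2 probe, dimmer at a mean of 6.77 in hESC, passed as a single probe, 1.64 higher in progenitors, against 0.72 for the brightest.

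Of 72 carrier calls between progenitors and hESC, 43 were kept without background correction, and 43 with the authors' log2 values. Among the named carriers, SLC16A4, SLC16A7, SLC46A1, SLC66A1, SLC6A16 and SLC25A37 were under 2-fold in both settings, at log2 differences of 0.44 to 0.98. Likewise SLC19A3, SLC27A2, SLC29A3, SLC6A8, SLC25A22, SLC25A29 and SLC38A9 lay between −0.94 and −0.63, and SLC25A21 and SLC52A3, both undetected in progenitors, also lost their calls. SLC22A5 (0.98) and SLC38A10 (0.9969) lost theirs without the correction alone, and SLC47A1 and SLC13A5 with the authors' values.

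Transport proteins outside the solute carriers were listed for comparison. Of 28 ABC transporters, which pump their cargo with ATP, 17 could be tested. In progenitors against hESC 5 rose and 3 fell, 47.1% against 33.7% of all genes. ABCC3, an exporter of organic anions, read 6.04, 6.00 and 5.69 in hESC and 10.96, 11.40 and 10.91 in progenitors (5.18 ± 0.21, adjusted p = 7e-08). ABCC4, which exports cyclic nucleotides and prostaglandins, rose by 3.29 ± 0.14, and the cholesterol exporter ABCA1 by 1.13 ± 0.24 in embryoid bodies and 3.29 ± 0.24 in progenitors. Of 10 listed partner proteins of carriers, 7 were tested, 1 rose and 2 fell: the membrane scaffold STOM rose by 1.86 ± 0.10, the scaffold NHERF1 fell by 1.25 ± 0.11, and CLTRN, which escorts amino acid carriers in kidney and was not detected in progenitors, was at least 1.82-fold lower.

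Of the 40 carriers measured by more than 1 probe, none had probes called in opposite directions. For progenitors against hESC all probes gave the same call in 29 of them and 11 had a call on some probes only. The median SD between the 3 arrays of a group was 0.16 in hESC, 0.09 in embryoid bodies and 0.18 in progenitors.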

How the data were processed

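Total RNA of 9 samples was hybridised to Illumina BeadChips. The deposited table of intensities, per the file headers, gives a linear mean intensity and a detection p-value for 47323 probes per array; BeadStudio is named in the submitters' processing notes, with a version not given in the sources used here. A further table of the authors holds log2 values of 20127 probes, all detected on at least 4 arrays.

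Intensities were background corrected and quantile normalized with neqc (offset 16) of limma 3.58.1 in R 4.3.3. Probes detected (p under 0.05) on at least 3 arrays were kept, and each gene was read from the probe with the highest mean of the authors' log2 values. A single lmFit and eBayes model held all 9 arrays, with two-sided tests and Benjamini-Hochberg adjustment over 11991 genes; the code was tested on simulated data. Named genes are the 10 largest changes in each direction per comparison, the 2 largest per substrate class, a fixed set of carriers and up to 4 genes per other list; further carriers named to fill a class were chosen after their values were seen. Members and lists were chosen with earlier results of these data known. The number of arrays limits the precision. Replicate numbers did not pair the arrays.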

Additional observations from a re-analysis of the deposited data

How the results depend on the processing

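The results were recomputed under 19 alternatives, 9 of which leave out 1 array; 1 further setting, added after seeing the data and counted among the 19, leaves out the third hESC and second progenitor arrays together. The naming rule picked 76 carrier results that passed, and results named beyond this rule are not among them. None of the 76 changed direction under any alternative. In 52 combinations of such a result and an alternative the result no longer passed, 15 each without background correction and with the authors' log2 values. Further named carriers that lost their calls under these settings are given above and are not in these counts. Embryoid body calls moved most: 1 higher and 9 lower with median scaling, 1 and 0 without background correction, 1 and 0 with the authors' log2 values, and 0 and 0 with the closest arrays of a group averaged, and 3 lower with the third hESC and second progenitor arrays left out. Leaving out single arrays gave 0 to 3 lower. Between progenitors and hESC, 18 rose and 25 fell without background correction, and 20 and 23 with the authors' log2 values. Against embryoid bodies 44 and 45 carriers were called under these, 17 and 19 of them higher. Shares of all genes under the alternatives are not given here, so nothing about the carriers is read from these shifts. The cause was not tested. When each array was left out in turn, 63 of 72 and 60 of 67 progenitor calls and 3 of 6 embryoid body calls were kept every time. SLC7A11 lost its call against embryoid bodies with the closest arrays averaged (log2 2.07, adjusted p = 0.114). With the replicate block, which the array deviations did not bear out, 5 and 1, 34 and 38, and 32 and 36 carriers were called. Signal near background limits the undetected groups, for which bounds were given.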
